A study of Mus musculus with 21 samples.

Results

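Genes named Zfp followed by a number were described across 7 groups of sorted mouse CD4+ T cells. The members were all genes of the deposited rlog table (regularised log2 values, which hold the genes kept by the study's filter on reads) whose name has this form, except Zfp36, whose product binds RNA and is not of the DNA-binding type. There were 307 members among the 15249 genes of that table. The count table holds 374 genes of this form, of which 66 had under 10 reads over all libraries and were left out, 44 of them with 0 reads in every library. Each member was matched to its row of raw counts by its Ensembl ID. Many were weakly counted: the mean normalised count (reads divided by a size factor per library) ran from 0.451 to 1027 with a median of 24.5, and 98 members had a mean under 10. The 10 most counted members held 33.4% of the family's normalised counts.

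Most Zfp genes encode proteins with tandem C2H2 zinc fingers, small folds that each hold a zinc ion and read a few bases of DNA. A large part of the family carries a KRAB box at the amino terminus, which recruits the co-repressor Trim28 and, through it, the histone methyltransferase Setdb1, so that the DNA they bind, often a transposable element, is silenced. Others bind RNA, act in ribosome assembly or ubiquitin ligation, or bridge co-repressor complexes, and share with the rest only the name and the fold.

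The cells came from Tg4 Tiger Nr4a3-Tocky mice, in which a transgenic T cell receptor recognises a myelin basic protein peptide, Il10 is reported by GFP, and a Timer protein that matures from blue to red is made under Nr4a3 control as a readout of receptor signalling. The [4Y] version of that peptide was injected under the skin in PBS without adjuvant, at a low dose (0.8 µg) or a high dose (80 µg), and spleens were collected 4 h, 12 h or 24 h later. The control group was untreated. There were 3 libraries in each of the 7 groups, each from 1 mouse per the study's methods, which also state that both sexes were used, with no age given in the sources used here. The receptor, reporter and Timer are carried by every group, the controls included. The sort took Blue+Red- cells at 4 h, Blue+Red+ cells at 12 h and Blue-Red+ cells at 24 h, so that time and gate cannot be told apart, and the gate of the control cells is not given in the sources used here.

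Library totals ranged from 2352800 to 6244279 counts, and the members took 0.417% to 0.652% of them. The 9 CD4 T cell markers summed to 1526 to 3842 CPM (counts scaled to the library total) per library, highest in the control group and lowest at 12 h in the 0.8-µg group. Over all libraries, the 2 markers of CD8 T cells summed to 13.1 to 51.3 CPM, those of B cells to 2.03 to 80.6, of myeloid cells to 0.462 to 30.4, of dendritic cells to 0 to 2.46 and of plasma cells to 0 to 1.7. The NK cell markers, 3 of 4 of them in the table, ranged from 2.13 to 5.19 CPM in the control group and from 73.4 to 102 CPM in the 0.8-µg group at 12 h, with the defining marker Ncr1 under the filter, as were Cd14, Siglech and Xcr1 of the other lists. B cell markers were highest in the control group, at 37.8 to 80.6 CPM, and 7.53 to 16 CPM in the 80-µg group at 24 h. The part of other cells in the results below was not tested. In bulk libraries, fewer cells of a type and less RNA per cell cannot be told apart.

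The upstream sequences of 6 members with contrasting courses are given first, to show the DNA next to their start sites: Zfp945, Zfp386 and Zfp217, which fell at 4 h and 12 h, Zfp566, which rose at 4 h, Zfp367, which fell at 4 h and rose later, and Zfp281, whose level at 4 h differed between the doses. Each is the 150 bases before the RefSeq start on GRCm38.p6, written 5′ to 3′ along the gene's strand, with the letters of any searched motif, on either strand, in capitals. They lie at chr17:22867135-22867284 on the minus strand (Zfp945), chr12:116047574-116047723 on the plus strand (Zfp386), chr2:170142676-170142825 on the minus strand (Zfp217), chr7:30090511-30090660 on the minus strand (Zfp566), chr13:64153200-64153349 on the minus strand (Zfp367) and chr1:136624751-136624900 on the plus strand (Zfp281).
Zfp945: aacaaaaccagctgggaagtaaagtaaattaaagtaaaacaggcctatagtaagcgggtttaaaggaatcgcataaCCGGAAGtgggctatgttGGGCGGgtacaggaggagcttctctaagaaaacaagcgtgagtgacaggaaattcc
Zfp386: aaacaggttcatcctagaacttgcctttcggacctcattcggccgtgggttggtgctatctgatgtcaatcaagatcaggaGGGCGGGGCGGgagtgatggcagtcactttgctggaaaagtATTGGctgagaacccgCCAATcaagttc
Zfp217: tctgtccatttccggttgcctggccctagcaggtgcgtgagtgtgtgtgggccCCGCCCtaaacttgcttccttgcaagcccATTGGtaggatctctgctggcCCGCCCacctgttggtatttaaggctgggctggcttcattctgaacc
Zfp566: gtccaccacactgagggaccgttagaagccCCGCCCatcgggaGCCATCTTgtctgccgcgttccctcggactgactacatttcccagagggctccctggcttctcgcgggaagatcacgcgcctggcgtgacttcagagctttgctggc
Zfp367: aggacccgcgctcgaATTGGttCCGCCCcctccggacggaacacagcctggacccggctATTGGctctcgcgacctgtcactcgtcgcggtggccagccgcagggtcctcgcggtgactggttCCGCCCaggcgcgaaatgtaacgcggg
Zfp281: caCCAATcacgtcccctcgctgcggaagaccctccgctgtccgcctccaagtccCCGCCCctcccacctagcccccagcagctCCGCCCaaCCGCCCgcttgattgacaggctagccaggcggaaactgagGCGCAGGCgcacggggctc

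Promoter windows of 300 bases were found in the RefSeq table for 257 of the 307 members and compared with those of 27025 genes in all. The members had passed the filter on reads, while the 27025 genes were taken whether or not they had reads in these cells. The shares below therefore do not separate a trait of the family from one of genes with reads. The ETS motif CCGGAAG was present in 21.4% of the members' windows and in 9.2% of all windows, and is seen above in that of Zfp945. The YY1 motif AAGATGGC was held by 6.2% against 2.8%, the SP/KLF motif GGGCGG by 46.7% against 36.0%, and the NFY motif CCAAT by 49.8% against 37.9%. For the NRF1 motif (GCGCATGC or GCGCAGGC) the shares were 9.7% and 7.0%, for the CREB/ATF motif TGACGTCA 3.5% and 1.9%, and for the AP-1 motif TGAGTCA 3.1% and 5.2%. Both strands were searched, and none of these motifs contains another. The median GC content of the windows was 54.3% in the members and 52.7% in all genes. A match of letters is a description and was not tied to any change in level.

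In every immunised library the typical member was counted less than in the control cells. The median over members of the difference from the control mean, on the scale log2(normalised count + 1), lay between -0.34 and -0.49 in the 0.8-µg libraries at 4 h, between -0.49 and -0.54 at 12 h and between -0.25 and -0.34 at 24 h. In the 80-µg libraries it lay between -0.45 and -0.54 at 4 h, between -0.41 and -0.56 at 12 h and between -0.40 and -0.43 at 24 h. The same median over all genes lay between -0.05 and -0.15 at 4 h and 12 h and was 0.00 in each library at 24 h. On this scaling the family's median thus stayed below the control level at 24 h. The size factors hold the median over all genes close to the control level, so its value of 0.00 at 24 h does not measure a recovery.

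**Figure D1:**
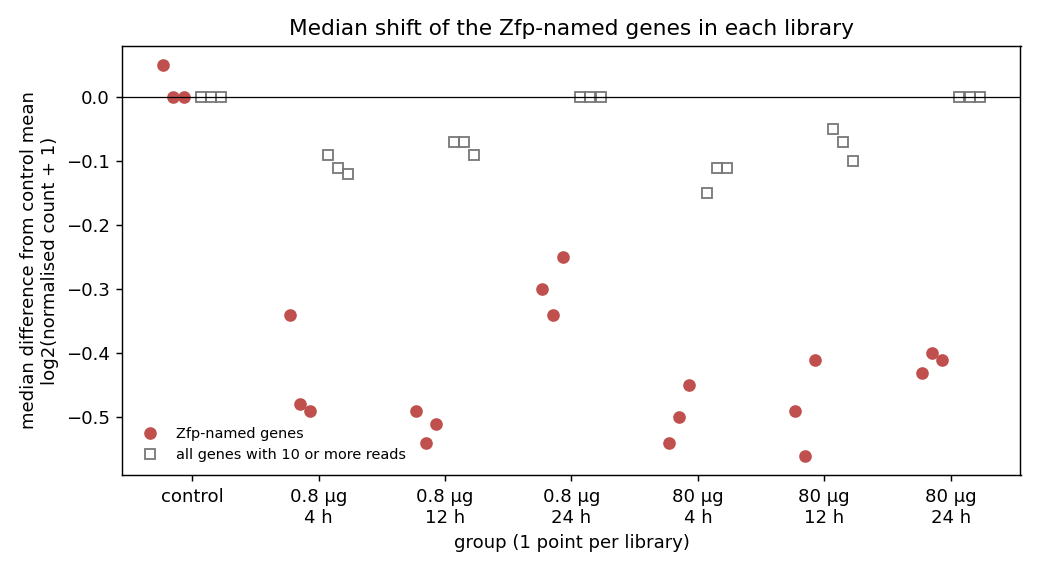
Median difference from the control mean (vertical axis, log2 of normalised count plus 1) in each library, by group, for the 307 members (filled circles) and for all genes with 10 or more reads (open squares). The members lie at or below -0.25 in each of the 18 immunised libraries, while all genes lie between -0.15 and 0.00.

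The summed level of the family moved later than the typical member. The members' normalised counts summed to 21510 ± 290 (SD, n = 3) in the control group, 20955 ± 296, 17021 ± 675 and 17547 ± 552 in the 0.8-µg group at 4 h, 12 h and 24 h, and 20328 ± 260, 16645 ± 345 and 16650 ± 549 in the 80-µg group. As a share of the control mean these sums were 97.4%, 79.1% and 81.6% at the low dose and 94.5%, 77.4% and 77.4% at the high dose. The median normalised count of a member was 30.9 ± 0.492 in the control group and already 17.9 ± 1.15 (0.8 µg) and 17.3 ± 1.8 (80 µg) at 4 h, where highly counted members such as Zfp106 and Zfp91 had risen. Scaled as CPM, which is not corrected for a few genes that take many reads, the sum was 87.6% and 84.7% of control at 4 h and 74.4% and 65.6% at 24 h for the low and high dose.

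To ask which members moved after antigen, the 6 immunised groups were each set against the control group. All 6 comparisons use the same 3 control libraries, so their counts are not independent of each other. Calls required an adjusted p under 0.05 (DESeq2, Benjamini-Hochberg over all genes tested) and a shrunken log2 fold change over 1 in size. At 4 h in the 0.8-µg group, 71 of 292 tested members fell (24.3%, where 23.4% of all genes tested fell) and 19 rose (6.51%, where 17.3% of all genes rose). In the 80-µg group at 4 h, 79 of 292 fell (27.1%, against 25.1% of all genes) and 22 rose (7.53%, against 18.4%). The share of members that fell was therefore close to that of all genes, and the share that rose was below it. The median shrunken log2 fold change was -0.47 and -0.53 in the members, and -0.10 and -0.12 in all genes. Over genes with a mean of 20 or more counts, the low-dose medians were closer to 0, at -0.23 in the members and -0.04 in all genes. Of the 4 h calls, 58 of 90 at the low dose and 74 of 101 at the high dose were kept whichever 1 library of the compared groups was left out.

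**Figure D2:**
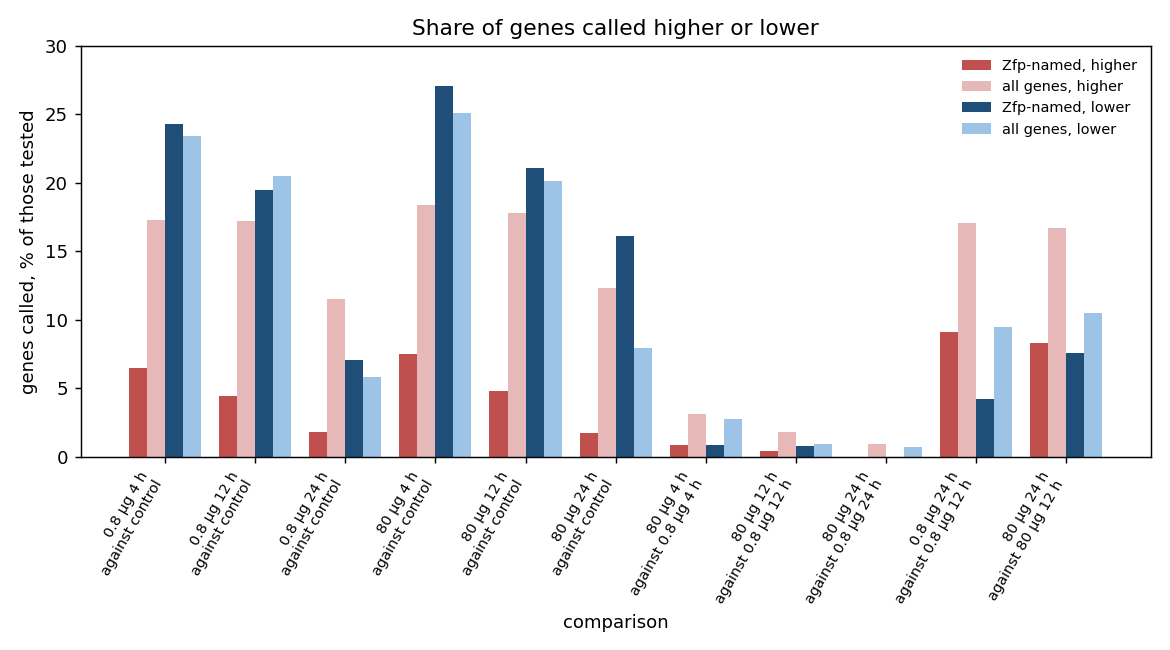
Percentage of tested genes called higher (red) or lower (blue) in each of 11 comparisons (vertical axis), for the Zfp-named genes (dark bars) and all genes (pale bars). The dark red bar is lower than the pale red bar in every comparison, and the dark blue bar stands clearly above the pale one at 24 h in the 80-µg group, at 16.1% against 7.91%.

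Zfp945, on chromosome 17 (22846697 to 22867134, GRCm38) with 18 fingers in its longest coding sequence, fell furthest among the well-counted members at 4 h in the 0.8-µg group. It had 121, 142 and 107 normalised counts in the control libraries, 1.01, 3.95 and 2.16 at 4 h in the 0.8-µg group, and 3.47, 0.0 and 3.43 in the 80-µg group. The groups did not overlap, and the level was 51.9-fold lower at the low dose (shrunken log2 fold change -5.24, SE 0.56, DESeq2 adjusted p = 9.90e-16) and 53.6-fold lower at the high dose (-5.27, SE 0.55, adjusted p = 3.08e-17). Only 6 and 7 reads in all stand behind these low levels. Zfp40, the Zfp gene nearest to it on chromosome 17, had 34.0, 71 and 41.4 normalised counts in the control group and 0.0, 1.32 and 4.32 at 4 h in the 0.8-µg group, a 26.0-fold lower mean.

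Zfp831, a gene on chromosome 2 with 2 fingers, had 226, 192 and 227 normalised counts in the control libraries. At 4 h these were 10.1, 5.27 and 7.55 at the low dose and 4.63, 5.81 and 7.72 at the high dose, all far below the lowest control library. The mean was 28.1-fold lower (log2 fold change -4.63, SE 0.35, DESeq2 adjusted p = 7.81e-35) and 35.5-fold lower (-4.93, SE 0.36, adjusted p = 3.06e-37). Zfp287 had 122, 107 and 140 normalised counts in the control group, and 3.03, 6.59 and 6.47 at 4 h in the 0.8-µg group. In the 80-µg group Zfp287 had 3.47, 1.94 and 6.86, so that the 2 doses overlapped and both lay below every control library (22.9-fold and 30.1-fold lower). Zfp949, which carries a KRAB-like stretch, fell from 41.6 ± 7.54 to 1.11 ± 1.02 at the low dose, where 3 reads remained over the 3 libraries, and to 1 read in all at the high dose. Its counting ratio was 36.6 (95% exact interval 12.2 to 180) at the low dose and 126 (22.1 to 5008) at the high dose, and these intervals, like every counting interval given here, cover counting error only.

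Zfp467, whose product promotes fat cell over bone cell differentiation, had 67.0, 61.9 and 42.8 normalised counts in the control libraries. It had 6.06, 1.32 and 1.08 at 4 h at the low dose and 0.0, 0.969 and 0.0 at the high dose, where a single read was counted over the 3 libraries. Its log2 fold change was -3.82 (SE 0.68, DESeq2 adjusted p = 6.48e-07) and -5.43 (SE 0.77, adjusted p = 1.59e-07). Zfp386, a KRAB-like member on chromosome 12, had 129, 176 and 196 normalised counts in the control group, 13.1, 6.59 and 20.5 at 4 h in the 0.8-µg group and 3.47, 2.91 and 5.14 in the 80-µg group. The 3 groups did not overlap, and the mean was 12.5-fold lower at the low dose and 43.5-fold lower at the high dose.

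Other members fell by smaller folds. Zfp217, a protein of CoREST and LSD1 co-repressor complexes, had 278, 263 and 243 normalised counts in the control libraries, 38.4, 39.5 and 30.2 at 4 h at the low dose and 28.9, 31.0 and 28.3 at the high dose. That is 7.25-fold and 8.88-fold lower, with a DESeq2 adjusted p of 2.70e-39 and 4.91e-46. Zfp260 fell from 318 ± 47.2 to 61.0 ± 8.31 and 53.6 ± 14.9, and Zfp362 from 125 ± 16.4 to 18.8 ± 6.85 and 13.4 ± 1.55. Zfp652 fell from 387 ± 39.8 to 113 ± 17.5 at the low dose and to 69.7 ± 11 at the high dose. Zfp652 has exons that overlap Phospho1 on its own strand and Abi3 on the other, so reads of these genes may not be separable.

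**Figure D3:**
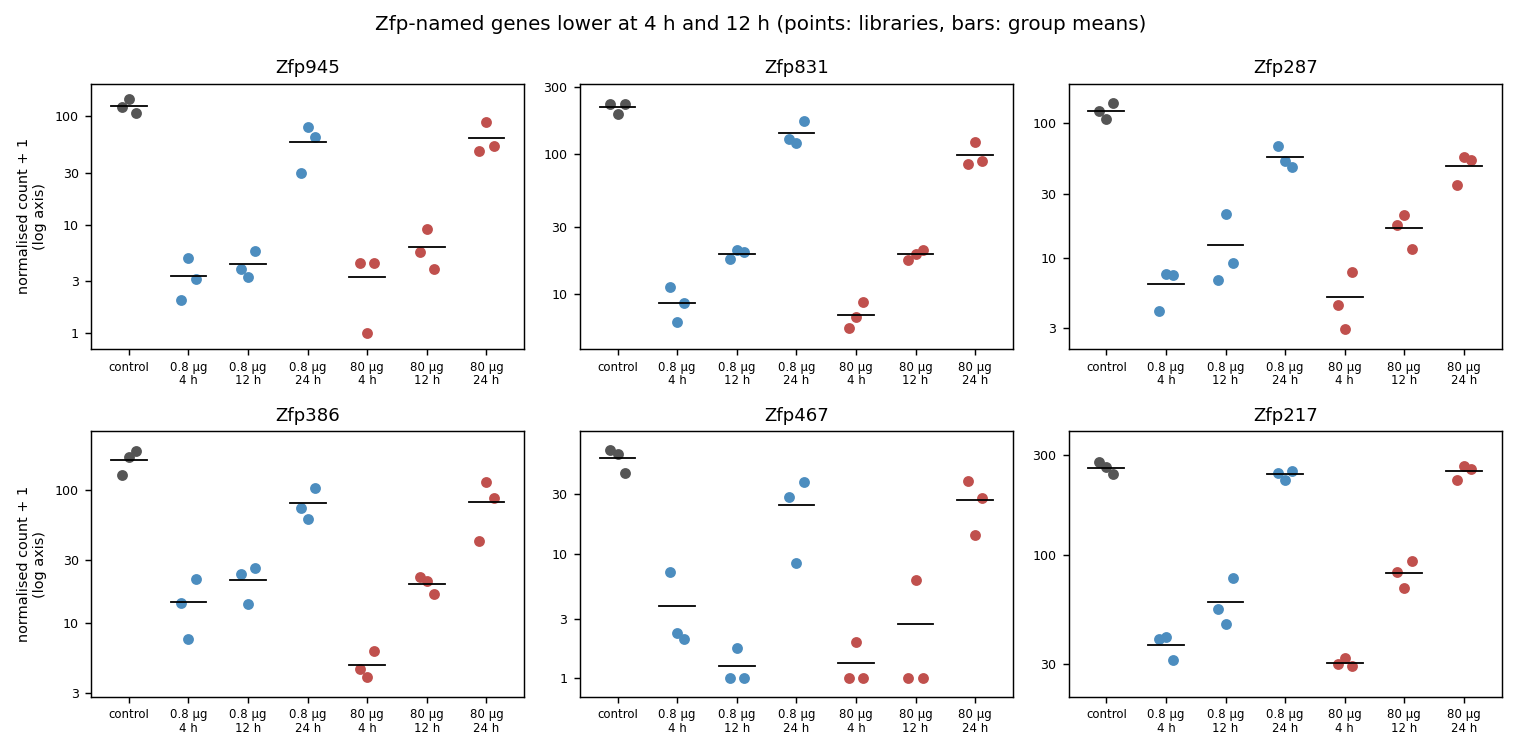
Normalised count plus 1 (log vertical axis) in each library of the 7 groups for 6 members that fell at 4 h and 12 h, with bars at group means. For each of the 6, the 12 libraries at 4 h and 12 h lie below the 3 control libraries, and the 24 h libraries lie above those at 12 h of the same dose.

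Among members that rose at 4 h, Zfp593, whose product takes part in the assembly of the large ribosomal subunit, had 30.9, 40.6 and 34.3 normalised counts in the control libraries. It had 283, 332 and 269 at 4 h at the low dose and 345, 390 and 338 at the high dose. The groups did not overlap with the control, and the mean was 8.35-fold higher (log2 fold change 3.02, SE 0.20, DESeq2 adjusted p = 1.56e-49) and 10.1-fold higher (3.30, SE 0.20, adjusted p = 4.12e-60). Zfp428 had 6.18, 0.0 and 9.99 normalised counts in the control group and 36.3, 35.6 and 43.2 at 4 h at the low dose, a 7.11-fold higher mean. Zfp566 had 30.9, 22.3 and 32.8 in the control group, 167, 171 and 155 at the low dose and 160, 137 and 115 at the high dose. Zfp566 was thus 5.73-fold and 4.78-fold higher, although it shares exon sequence on its strand with Gm26920, and reads of the 2 genes may not be separable.

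Further members rose at 4 h. Zfp91, a ubiquitin ligase, rose from 564 ± 14.3 to 1247 ± 86.2 (0.8 µg) and 1333 ± 42.4 (80 µg), with the limit that its exons overlap Cntf on the same strand. Zfp106, an RNA-binding protein and the most counted member over the low-dose 12 h libraries, rose from 466 ± 38.7 to 1337 ± 51.5 and 1174 ± 108. Zfp131, a BTB-domain zinc finger protein, rose from 226 ± 26.1 to 518 ± 48.0 and 495 ± 17.7. Zfp598, the ubiquitin ligase that marks collided ribosomes, rose from 118 ± 10.5 to 261 ± 41.7 and 286 ± 22.5. Zfp771 rose from 27.9 ± 10.1 to 100 ± 6.98 and 85.5 ± 6.85.

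Zfp52 and Zfp948 lie 4407 bases apart on chromosome 17, carry KRAB-like stretches, and were higher in each immunised group. Zfp52 had 0.0, 4.06 and 1.43 normalised counts in the control libraries, 27.3, 38.2 and 25.9 at 4 h at the low dose and 79.9, 45.5 and 67.7 at the high dose. Behind the control level of Zfp52 stand 5 reads, and the log2 fold change was 3.34 (SE 0.60, DESeq2 adjusted p = 1.31e-06) and 4.38 (SE 0.59, adjusted p = 2.68e-10). Zfp948 had 7.22, 10.1 and 11.4 in the control group, 34.3, 42.2 and 39.9 at the low dose and 49.8, 61.0 and 74.6 at the high dose. As neighbouring copies of a clustered family, the 2 genes may share reads.

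At 12 h, 57 of 292 tested members fell in the 0.8-µg group (19.5%, where 20.5% of all genes fell) and 13 rose (4.45%, where 17.2% of all genes rose). In the 80-µg group, 62 of 294 fell (21.1%, against 20.1% of all genes) and 14 rose (4.76%, against 17.8%). The median log2 fold change was -0.51 and -0.48 in the members and -0.08 and -0.09 in all genes. Of 70 calls at the low dose, 51 were kept with any 1 library left out, and of 76 at the high dose, 56. Some of these libraries stood apart by a chi-square per gene, a measure of the difference within a pair of libraries. It was 14.8 and 14.4 for 0.8-µg replicate 3 with replicates 1 and 2, and 3.35 between those. For 80-µg replicate 2 it was 8.7 and 9.49, against 4.86 for the other pair.

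The members named above as lowest at 4 h were still low at 12 h. Zfp945 had 2.94, 2.26 and 4.70 normalised counts at the low dose and 4.57, 8.07 and 2.92 at the high dose, 37.4-fold and 23.8-fold below the control mean. Zfp467 had 0.0, 0.752 and 0.0 at the low dose, a single read against 156 in the control libraries (counting ratio 188, 95% exact interval 33.2 to 7472 for counting error only), and 0.0, 5.14 and 0.0 at the high dose. Zfp831 had 16.7, 19.6 and 18.8 at the low dose and 16.4, 18.3 and 19.4 at the high dose. Values of the 2 doses overlapped in each of these genes.

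Zfp871 and Zfp292, both among the 10 most counted members, fell at 12 h at both doses. Zfp292, a large transcription factor with 15 fingers, had 1352, 1243 and 1309 normalised counts in the control libraries, 532, 502 and 498 at 12 h at the low dose and 491, 459 and 472 at the high dose. That is 2.55-fold lower (log2 fold change -1.35, SE 0.10, DESeq2 adjusted p = 1.24e-40) and 2.75-fold lower (-1.45, SE 0.10, adjusted p = 1.80e-47). At 4 h Zfp292 had 678, 597 and 692 at the low dose, a log2 fold change of -0.98 that was just short of the threshold, and at the high dose it was called lower (-1.30, SE 0.10, adjusted p = 2.44e-38). Zfp871, a KRAB-like member, fell from 650 ± 51.4 to 262 ± 6.06 and 282 ± 46.7 at 12 h. Zfp687 fell from 137 ± 21.4 to 44.2 ± 19.1 and 52.4 ± 10.2. Both Zfp871 (-1.16 and -1.13) and Zfp687 (-1.47 and -1.43) were already called lower at 4 h at the low and high dose.

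Zfp593 stayed high at 12 h, with 253, 230 and 232 normalised counts at the low dose and 208, 241 and 204 at the high dose (6.77-fold and 6.18-fold higher than control). Zfp106 had 1310, 1337 and 1547 at the low dose, 3.00-fold above the control mean. Zfp706 rose from 214 ± 28.7 to 505 ± 46.5 and 456 ± 59.5, and Zfp219 from 46.6 ± 13.8 to 116 ± 5.39 and 124 ± 23.9. Zfp219 has exons opposite Arhgef40 and Tmem253, and the strand setting of the counting is not given in the sources used here.

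Zfp367 changed direction between the times. It had 19.6, 7.10 and 11.4 normalised counts in the control libraries, and at 4 h 0.0, 2.63 and 1.08 at the low dose and 1.16, 0.969 and 3.43 at the high dose. At 12 h it had 47.1, 49.6 and 43.4 at the low dose and 95.9, 53.6 and 104 at the high dose, and at 24 h 107, 101 and 98.1 and 131, 154 and 152. None of the immunised libraries overlapped the control range. The log2 fold change against control was -2.60 (SE 0.60), 1.81 (SE 0.36) and 2.92 (SE 0.35) at the low dose, with DESeq2 adjusted p of 2.98e-04, 2.04e-06 and 3.97e-15. At the high dose it was -2.23, 2.64 and 3.43, the last being an 11.5-fold higher mean. Each of these calls was kept with any 1 library left out.

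**Figure D4:**
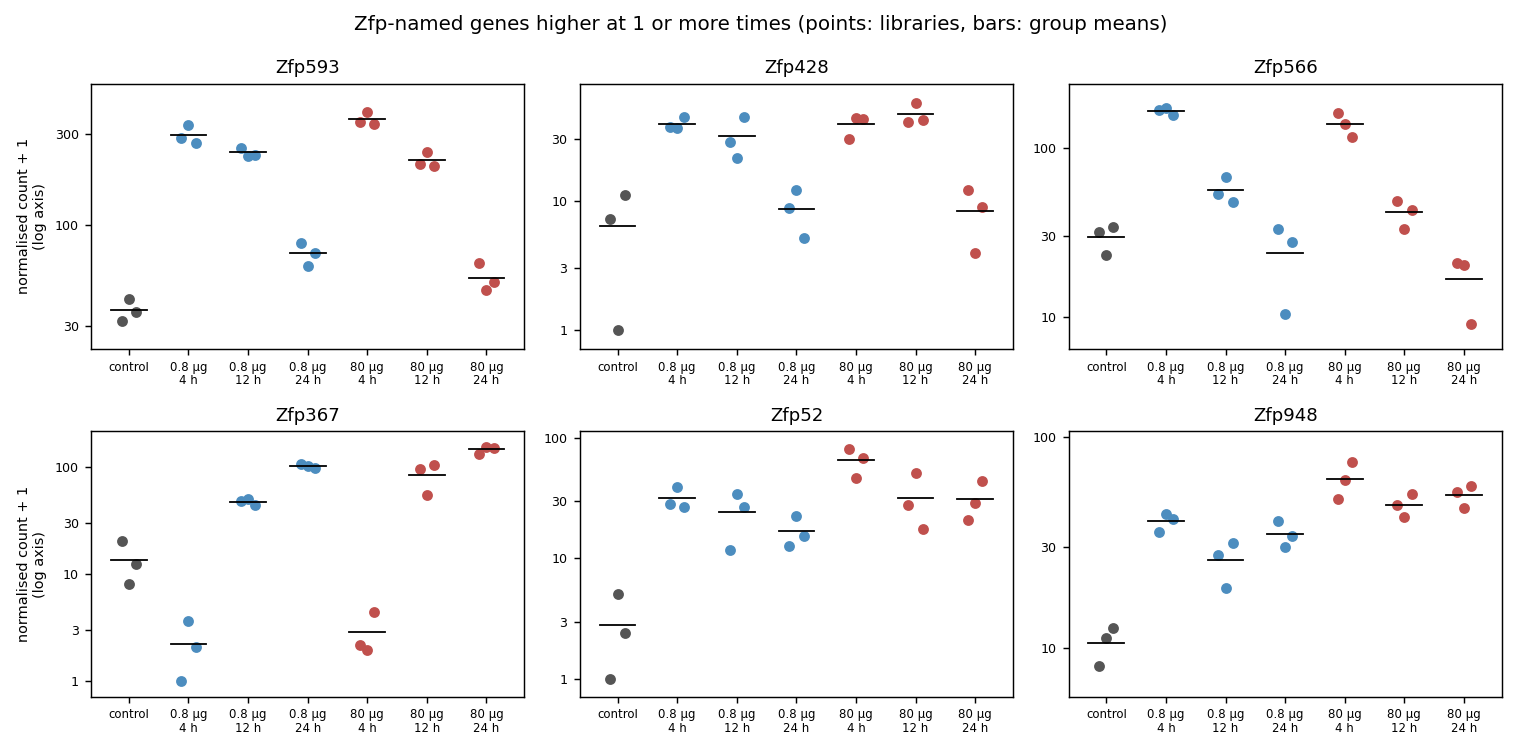
Normalised count plus 1 (log vertical axis) in each library of the 7 groups for 6 members that rose at 1 or more times, with bars at group means. Zfp593, Zfp428 and Zfp566 are highest at 4 h or 12 h and fall by 24 h, Zfp367 is lowest at 4 h and highest at 24 h, and Zfp52 and Zfp948 lie above the control in every immunised library.

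At 24 h fewer genes differed from the control. In the 0.8-µg group 20 of 282 tested members fell (7.09%, where 5.84% of all genes fell) and 5 rose (1.77%, where 11.5% of all genes rose). In the 80-µg group 46 of 285 fell (16.1%, against 7.91% of all genes) and 5 rose (1.75%, against 12.3%). The median log2 fold change was -0.29 and -0.43 in the members and 0.00 in all genes in both comparisons. Leaving out 1 library at a time kept 9 of the 25 calls at the low dose and 25 of the 51 at the high dose in every case. The 5 that rose at the low dose were Zfp367, Zfp52, Zfp820, Zfp821 and Zfp948, and the 5 at the high dose were Zfp367, Zfp52, Zfp808, Zfp820 and Zfp948, where Zfp808 and Zfp820 were named after their values were seen, to complete the count, and have 10 and 9 reads over the control libraries.

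Several members that fell at 24 h had been at or above the control level at 4 h. Zfp783, a gene with no coding sequence in the annotation whose exons overlap Zfp956 on the same strand, had 76.3, 61.9 and 65.7 normalised counts in the control group and 180, 130 and 122 at 4 h at the low dose. At 24 h it had 12.7, 11.2 and 46.5 at the low dose and 6.57, 22.8 and 13.6 at the high dose, with log2 fold changes of -1.5 (SE 0.35, DESeq2 adjusted p = 1.37e-04) and -2.12 (SE 0.36, adjusted p = 4.99e-08). Its higher level at 4 h passed the threshold at both doses but not without control replicate 2, among others. Reads of Zfp783 and Zfp956 may not be separable.

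Zfp146, a protein made almost only of zinc fingers, had 32.0, 42.6 and 44.3 normalised counts in the control libraries and 36.3, 31.6 and 49.6 at 4 h at the low dose, with overlapping ranges. At 24 h it had 14.6, 11.2 and 12.4 at the low dose and 11, 16.9 and 5.55 at the high dose, below every control library (log2 fold change -1.57, SE 0.39, DESeq2 adjusted p = 2.89e-04, and -1.77, SE 0.38, adjusted p = 2.45e-05). Zfp747, a KRAB-like member, had 36.1, 37.5 and 30 in the control group and 2.92, 14.9 and 12.4 at 24 h at the low dose (-1.69, SE 0.43, adjusted p = 4.65e-04). At the high dose Zfp747 had a log2 fold change of -1.03, a call lost without control replicate 1 or 2 or without replicate 2 or 3 of the 24 h group. Zfp764, which lies near it on chromosome 7, fell from 37.0 ± 8.01 to 11.4 ± 3.54 at 24 h at the high dose. The 24 h call of Zfp420 at the low dose (-1.39, adjusted p = 0.00435) was lost without replicate 2 of that group, where it was -1.10 with an adjusted p of 0.0506.

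Further members called lower at 24 h differed in their earlier course. Zfp652, which was also called lower at 4 h and 12 h at both doses, had 431, 353 and 378 normalised counts in the control libraries and 104, 115 and 100 at 24 h at the low dose and 107, 116 and 107 at the high dose, 3.64-fold and 3.52-fold lower. Zfp12, a KRAB-like member called lower at 4 h (log2 fold change -1.17) and 12 h (-1.25) at the low dose, fell from 83.3 ± 13.4 to 23.1 ± 8.21 at 24 h at the low dose and to 30.8 ± 9.38 at the high dose, where its log2 fold changes of -0.68 at 4 h and -0.74 at 12 h were not called. Zfp318, a nuclear protein known for its part in IgD splicing in B cells, had 264, 195 and 207 normalised counts in the control group. Zfp318 had 183, 196 and 275 at 4 h at the low dose and 86.6, 78.7 and 68.4 at 24 h at the high dose, a 2.85-fold lower mean (log2 fold change -1.51, SE 0.20, DESeq2 adjusted p = 8.18e-13). Markers of B cells ranged from 37.8 to 80.6 CPM in the control group and from 7.53 to 16 CPM in the 80-µg group at 24 h, and their part in the fall of Zfp318 was not tested. Zfp263, with log2 fold changes of 0.19 and 0.16 at 4 h that were not called, fell at 24 h from 184 ± 24.6 to 85.1 ± 17.6 and 76.6 ± 16.8, the first of these being a call lost without control replicate 1 or without replicate 3 of the 0.8-µg group at 24 h (log2 fold change -0.98 and -0.96).

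The 24 h groups were compared with the 12 h groups of the same dose to ask which members had moved back. At the low dose 26 of 285 tested members were higher at 24 h (9.12%, where 17.1% of all genes were higher) and 12 were lower (4.21%, against 9.48%). At the high dose 24 of 290 were higher (8.28%, against 16.7% of all genes) and 22 were lower (7.59%, against 10.5%). The median log2 fold change was 0.12 and 0.10 in the members and 0.12 and 0.11 in all genes, and the difference was not tested. The members' median at the high dose was lower in some fits with fewer libraries, as given in the closing section. These comparisons share their libraries with those against the control.

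The largest rises between 12 h and 24 h were of members that were low at 12 h. Zfp467 had 27.3, 7.46 and 36.1 normalised counts at 24 h at the low dose and 37.3, 13.2 and 27.1 at the high dose, a log2 fold change of 4.29 and 3.24 from 12 h. Zfp945 had 29.2, 78.3 and 64.0 normalised counts at 24 h at the low dose and 47.1, 88.3 and 51.8 at the high dose, 17.3-fold and 12.0-fold above 12 h (log2 fold change 3.85, SE 0.52, DESeq2 adjusted p = 2.37e-11, and 3.36, SE 0.47, adjusted p = 2.27e-11). It still lay below the control libraries, with a log2 fold change of -1.08 at the low dose that was lost as a call without control replicate 1 or 2 or 24 h replicate 1. Zfp831 had 128, 119 and 172 at the low dose and 84.4, 120 and 88.1 at the high dose, 7.62-fold and 5.39-fold above 12 h. Zfp217 had 246, 228 and 252 at the low dose and 227, 266 and 256 at the high dose, which overlap the control values of 243 to 278. Zfp386 rose from 18.8 ± 2.87 to 80.1 ± 36.8 at the high dose, and Zfp260 from 59.0 ± 18 to 206 ± 39.2, against 318 ± 47.2 in the control group.

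The return from 12 h to 24 h was not called at both doses for every member that had fallen. Zfp40 had 26.3, 41.0 and 26.8 normalised counts at 24 h at the low dose and 12.1, 14.0 and 14.2 at the high dose, where its control libraries had 34.0 to 71. Between 12 h and 24 h Zfp40 had a log2 fold change of 1.26 at the low dose (SE 0.51, DESeq2 adjusted p = 0.0328), a call lost without 12 h replicate 1 or 3 or 24 h replicate 2, and of 0.07 at the high dose. Its difference between the doses at 24 h was -1.15 and was not called.

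Between 12 h and 24 h other members were called lower. Zfp593 had 79.8, 60.6 and 71.2 normalised counts at 24 h at the low dose and 62.5, 44.9 and 49.9 at the high dose, 3.38-fold and 4.15-fold below 12 h (log2 fold change -1.75 and -2.06, SE 0.17 each). Zfp428 had 7.79, 11.2 and 4.13 and 11, 2.94 and 8.01, a range that overlaps that of the control group. Zfp568, a KRAB protein that silences a placental transcript of Igf2, fell from 97.1 ± 6.81 to 41.2 ± 8.08 at the low dose and from 110 ± 26.5 to 31.1 ± 16.4 at the high dose. Against the control mean of 58.6, Zfp568 was called only at 4 h at the high dose (log2 fold change 1.13), a call lost without control replicate 2. Zfp598 fell from 199 ± 34.5 to 67.0 ± 14.9 at the low dose. At the high dose Zfp598 had a log2 fold change of -1.09, a call lost without 12 h replicate 1 or 24 h replicate 1 (-0.98 and -0.99). Zfp106 at the high dose was a near case, at -1.01 in the fit of all libraries and -0.93 to -0.99 without any 1 of 4 libraries (replicates 2 and 3 of both groups).

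The dose groups were compared at each time. At 4 h, 2 of 237 tested members were higher at 80 µg than at 0.8 µg (0.844%, where 3.12% of all genes were higher) and 2 were lower (0.844%, against 2.74%). At 12 h, 1 of 251 was higher (0.398%, against 1.83% of all genes) and 2 were lower (0.797%, against 0.96%). At 24 h, 0 of 197 were called in either direction (DESeq2), where 0.89% of all genes were higher and 0.673% lower. Of all 307 members, with or without an adjusted p, 26 had an unadjusted p under 0.05. No share over all genes is given for that rule, so it does not set the members against other genes. At 24 h edgeR called 1 member, Zfp873, named after its values were seen, where it called 0.634% of all genes higher and 0.49% lower. The median log2 fold change of the members was -0.06, -0.05 and -0.12 at the 3 times, against -0.01, 0.00 and 0.00 in all genes. A member that misses the threshold is not shown to have the same level at both doses.

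Zfp703, a co-repressor that carries a single unusual zinc finger, gave the largest rise with dose among the called members. It had 55.7, 59.8 and 50 normalised counts in the control libraries, 88.8, 80.4 and 103 at 4 h at the low dose and 491, 349 and 376 at the high dose. The doses did not overlap, and the mean was 4.47-fold higher at 80 µg (log2 fold change 2.14, SE 0.19, DESeq2 adjusted p = 1.52e-27), a call kept with any 1 library left out. At 12 h Zfp703 had 122, 134 and 112 at the low dose and 106, 134 and 128 at the high dose, with overlapping ranges and a log2 fold change between doses of 0.00. At 24 h its levels were 63.3 to 89.8 and 61.1 to 77.8. The gene has no match to the finger pattern used here and lies opposite Gm45371.

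Zfp281, a GC-rich DNA binding protein of pluripotent cells whose upstream sequence is given above, was the other member that rose with dose at 4 h. It had 323, 293 and 307 normalised counts in the control group, 359, 387 and 340 at the low dose and 853, 643 and 772 at the high dose. The mean was 2.09-fold higher at 80 µg (log2 fold change 1.05, SE 0.18, DESeq2 adjusted p = 1.91e-07), and 0.95 with an adjusted p of 7.22e-05 without 80-µg replicate 1, which is short of the threshold for size. At 12 h it had 202, 251 and 154 and 227, 123 and 222, and the doses overlapped.

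Zfp386 and Zfp101 were lower at 80 µg at 4 h. Zfp386 was 3.49-fold lower, from 13.4 ± 6.96 to 3.84 ± 1.16 (log2 fold change -1.57, SE 0.51, DESeq2 adjusted p = 0.0204), on 37 and 12 reads, and the call was lost without 80-µg replicate 1 or 2 or without 0.8-µg replicate 3. Zfp101, a KRAB-like member of a chromosome 17 cluster, had 63.9, 54.8 and 68.5 normalised counts in the control libraries, 16.2, 11.9 and 16.2 at the low dose and 6.94, 4.84 and 4.29 at the high dose. It was 2.75-fold lower at 80 µg (-1.35, SE 0.43, adjusted p = 0.0162), with adjusted p up to 0.106 when 1 library was left out. At 24 h Zfp101 had 112, 92.3 and 83.6 at the low dose and 98.6, 129 and 145 at the high dose, all above the control libraries, with log2 fold changes of 0.62 and 1.00 that were not called.

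At 12 h, Zfp384 was 2.26-fold higher at 80 µg, with 12.7, 11.3 and 17.6 normalised counts at the low dose and 31.1, 33.0 and 30.1 at the high dose (log2 fold change 1.15, SE 0.37, DESeq2 adjusted p = 0.0345). The call of Zfp384 was lost without 5 of the 6 libraries in turn, all but 0.8-µg replicate 3, with values from 0.99 to 1.18. Zfp362 had 46.1, 41.4 and 34.0 at the low dose and 21.9, 13.9 and 17.5 at the high dose, 2.28-fold lower at 80 µg (-1.17, SE 0.30, adjusted p = 0.00357), a call lost without 80-µg replicate 2, where the adjusted p was 0.0628. Zfp26, a KRAB-like member with 22 fingers, had 65.7, 79.7 and 56.4 at the low dose and 35.6, 24.2 and 39.9 at the high dose. Zfp26 was 2.02-fold lower at 80 µg (-1.02, SE 0.27, adjusted p = 0.00596), and the call was lost without replicate 2 of either dose (-0.82 and -0.88). None of the 3 calls at 12 h was kept in every fit that left out 1 library.

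The difference between the dose effects at the 3 times was tested directly in the 18 immunised libraries. The DESeq2 likelihood ratio test called 6 of 209 tested members (2.87%), where 10.4% of all genes tested were called. An unadjusted p under 0.05 was found for 26 members, some of them without an adjusted p, and no share over all genes is given for that rule. Zfp703 had an adjusted p of 3.89e-17, Zfp281 of 0.00216, Zfp821 of 0.0105, Zfp101 of 0.0125, Zfp827 of 0.0184 and Zfp26 of 0.0244.

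Zfp821 and Zfp827 differed between the doses in opposite ways over time, without a call at any single time. The interaction call of Zfp827 was lost with edgeR (adjusted p 0.0578) and whichever 1 replicate number was left out of every group. That of Zfp821 was lost without replicate 2 of every group (DESeq2 adjusted p 0.0902) and had no adjusted p without replicate 3. Zfp821 had 5.05, 1.32 and 0.0 normalised counts at 4 h at the low dose and 3.47, 2.91 and 12.0 at the high dose, and at 24 h 31.2, 32.6 and 64.0 and 17.5, 11 and 11.7. Its log2 fold change between doses was 1.18, 1.52 and -1.55 at 4 h, 12 h and 24 h. Between 12 h and 24 h at the low dose Zfp821 rose by 3.78 (SE 0.67, DESeq2 adjusted p = 9.23e-07), a 22.3-fold higher mean that was kept with any 1 library left out. Against the control, its call at 24 h was lost without 0.8-µg replicate 3 (1.54, adjusted p 0.0629), and its calls at 4 h and 12 h at the low dose each without 3 libraries, control replicate 2 among them (-1.16 and -1.25). Zfp827, known to recruit the NuRD complex to telomeres, had 139, 123 and 128 at 4 h at the low dose and 196, 184 and 196 at the high dose, and at 24 h 38.0, 42.9 and 48.5 and 28.5, 33.9 and 24.0. At both times the doses did not overlap, and the log2 fold change was 0.56 and -0.58.

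**Figure D5:**
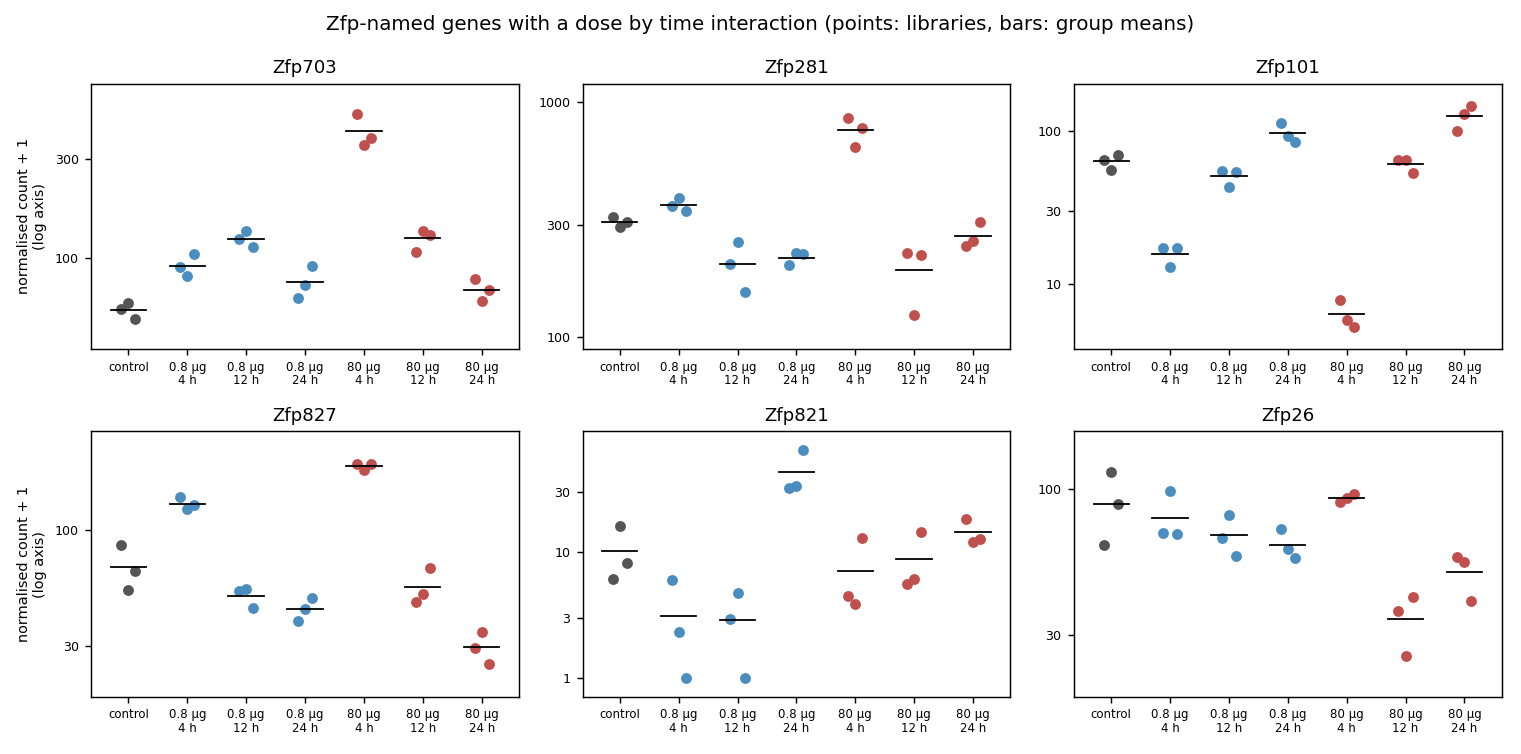
Normalised count plus 1 (log vertical axis) in each library of the 7 groups for the 6 members called by the dose by time interaction test, with bars at group means. Zfp703 and Zfp281 are highest at 4 h in the 80-µg group, Zfp101 is lowest there, and Zfp821 is highest at 24 h in the 0.8-µg group.

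The members were also set beside all genes of the same range of mean normalised count, as a description with no test. At 4 h, the 117 members with a mean of 10 to 50 normalised counts had a median log2 fold change of -0.61 at the low dose, where all genes of that range had -0.57, and the 77 members of 50 to 200 had -0.04 against -0.07. The 98 members under 10 had -0.77 against -0.20, and the 15 over 200 had 0.26 against 0.47. At 12 h at the low dose the members of 10 to 50 had -0.59 against -0.39, and those of 50 to 200 had -0.54 against -0.04. Members over 200, such as Zfp292 and Zfp106, had -0.06 against 0.36. At 24 h at the high dose the medians were -0.42, -0.49, -0.43 and -0.32 from the lowest range to the highest, against 0.00, -0.19, -0.01 and 0.21 in all genes. The shares of tested members that had fallen at that time were 10.5%, 17.9%, 22.1% and 0% from the lowest range to the highest, against 5.25%, 13.6%, 8.19% and 3.65% of all genes. At 24 h at the low dose they were 4.11%, 9.4%, 7.79% and 0%, against 2.75%, 10.1%, 5.96% and 3.68%. At 4 h at the low dose they were 22.9%, 29.9%, 20.8% and 6.67%, against 16%, 35.8%, 24.6% and 16.7%.

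A KRAB-like stretch (a fixed pattern of residues in the translated coding sequence) was found in 122 of the 304 members with a coding sequence. The pattern is strict, and misses Zfp568, for example, which is known as a KRAB protein. Members with the stretch had a median of 12 fingers and a median mean count of 16.3, and those without it 9 fingers and a mean count of 33. At 4 h at the low dose, the median log2 fold change was -0.76 in the members with the stretch and -0.33 in those without, with 34 of 115 (29.6%) and 37 of 175 (21.1%) fallen, where 23.4% of all genes fell. The 4 h shares at the high dose were 32.2% and 24%, against 25.1% of all genes. At 12 h 20.9% with the stretch and 18.9% without it fell at the low dose, against 20.5% of all genes. At the high dose 25% and 18.8% fell, against 20.1% of all genes. At 24 h the shares were 5.45% and 7.65% at the low dose, against 5.84%, and 17% and 15.2% at the high dose, against 7.91%. At 12 h the medians were -0.52 and -0.54 at the low dose and -0.60 and -0.38 at the high dose, and at 24 h -0.35 and -0.25, and -0.55 and -0.38. These are descriptions with no test, and the 2 classes differ in how strongly they are counted.

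The members lie in clusters: 186 of 307 have another Zfp gene within 100000 bases, 82 are on chromosome 7, 38 on chromosome 17 and 29 on chromosome 13. Of the chromosome 17 members, 18 of 37 tested fell at 4 h at the low dose (48.6%, where 31.1% of all genes on that chromosome fell), with a median log2 fold change of -1.18 against -0.29. They include Zfp945, Zfp40, Zfp101 and Zfp871. On chromosome 7, 13 of 77 members fell (16.9%, against 25% of all genes there), with a median of -0.37. At the high dose at 4 h, 40.5% of chromosome 17 members fell, against 30.5% of all genes there, and 22.1% of chromosome 7 members, against 27.7%. At 12 h the chromosome 17 shares were 24.3% against 25.3% at the low dose and 36.8% against 24.2% at the high dose, and those of chromosome 7 were 16.9% against 23.8% and 15.6% against 22%. On chromosome 13, 26.9% of members against 24.2% of all genes fell at 4 h at the low dose, 19.2% against 19.8% at 12 h and 0% against 6.32% at 24 h, and at the high dose 30.8% against 25%, 11.1% against 20.5% and 8% against 7.19%. At 24 h the chromosome 17 shares were 8.57% against 6.98% at the low dose and 8.33% against 8.57% at the high dose. Those of chromosome 7 were 8% against 5.86% and 16% against 8.22%. Members of a cluster can share sequence and reads, so they are not independent of each other. Exons of 94 members overlap another annotated gene, 29 on the same strand and 72 on the opposite strand.

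Of the members with a described role that have not been named so far, few were called. Zfp207, a spindle assembly protein, had log2 fold changes of 0.32 to 0.47 against control, and Zfp638, an RNA-binding protein that helps silence viral DNA, of -0.37 to 0.26. Zfp622, which like Zfp593 acts on the large ribosomal subunit, had 110, 133 and 127 normalised counts in the control libraries and 241, 223 and 248 at 4 h at the low dose. Its log2 fold change of 0.94 was short of the threshold, as was 0.96 at the high dose. Zfp143, which binds promoters and chromatin loop anchors, fell from 95.3 ± 15.8 to 40.8 ± 11.1 at 12 h at the high dose, a call lost without replicate 3 of that group. Zfp410, which controls Chd4, ranged from -0.74 to 0.30 and was not called.

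Other members of the list with a described role, or among the 10 most counted, were not called against the control. Zfp809, which silences retroviral DNA, had log2 fold changes of -0.21 to -0.82 against control, and Zfp445, which protects imprints, of -0.78 to 0.10. Zfp335, needed for T cell maturation, had -0.47 to -0.80 in the 6 comparisons, and its exons lie opposite Pcif1. Zfp592 had -0.53 to -0.83, Zfp148 -0.19 to -0.50, Zfp644, a partner of histone methyltransferases, -0.96 to 0.05, Zfp830 -0.33 to 0.84 and Zfp800 -0.25 to 0.44. Zfp57, which protects imprinted DNA, had under 10 reads and is not a member.

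The machinery that KRAB proteins use had medians above 0 in the comparisons with the control. Of a list of 29 co-repressor and silencing genes, 28 were found, and 9 rose and 4 fell at 4 h at the low dose (median log2 fold change 0.48), 9 rose and 1 fell at 12 h (0.64), and 8 rose and 0 fell at 24 h (0.55). At the high dose the counts were 9 and 5 (0.56), 10 and 1 (0.63), and 8 and 0 (0.65). Over all genes, the shares that rose and fell at the low dose were 17.3% and 23.4% at 4 h, 17.2% and 20.5% at 12 h, and 11.5% and 5.84% at 24 h, and at the high dose 18.4% and 25.1%, 17.8% and 20.1%, and 12.3% and 7.91%. Many of the listed genes are well counted, and all genes with a mean over 200 normalised counts also had medians above 0. In the same order of times these were 0.47, 0.36 and 0.18 at the low dose. At the high dose they were 0.48, 0.39 and 0.21. Of those genes, 34.7%, 32.2% and 15.2% rose at the low dose, and 35.1%, 32.8% and 16.9% at the high dose. The difference between the list and those genes was not tested. Trim28, the co-repressor that KRAB boxes recruit, had log2 fold changes of 1.81, 2.04 and 1.12 at the low dose and 1.72, 1.86 and 0.98 at the high dose, the last not called. Setdb1, the methyltransferase that Trim28 brings, had 1.20, 1.29 and 0.52 at the low dose and was called at 4 h and 12 h. Suv39h2, which methylates the same histone residue, had 3.70, 2.58 and 2.54.

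Some of this machinery followed other courses. Uhrf1, which guides maintenance methylation of DNA, had -0.99 at 4 h, 3.72 at 12 h and 5.76 at 24 h at the low dose, the first not called, and -0.82, 5.01 and 6.27 at the high dose, again with the first not called. Its partner Dnmt1 had -0.95, 0.92 and 2.00 at the low dose, of which only the last was called, and -1.84, 1.26 and 2.19 at the high dose, all called. The genes that fell at 4 h at the low dose were Atf7ip, Cbx3, Ehmt2 and Hdac1, joined by Dnmt1 at the high dose, and the 1 that fell at 12 h was Atf7ip, at -2.11. Between the doses 1 gene of the list was called, Uhrf1 at 12 h (1.29).

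Other zinc finger families named by their domains had medians below that of all genes in each of the 6 comparisons with the control. In the 36 Zbtb genes the median log2 fold change was -0.34, -0.56 and -0.37 at 4 h, 12 h and 24 h at the low dose and -0.34, -0.46 and -0.36 at the high dose, with 10, 10, 4, 11, 11 and 9 genes fallen and 6, 1, 0, 6, 1 and 2 risen, of 34 or 35 tested. The shares of all genes that fell were 23.4%, 20.5%, 5.84%, 25.1%, 20.1% and 7.91% in the same order, and of those that rose 17.3%, 17.2%, 11.5%, 18.4%, 17.8% and 12.3%. In the 8 Zkscan genes the medians were -0.81, -0.38 and -0.40 and -0.68, -0.78 and -0.22, with 0 to 2 fallen and 0 or 1 risen. In the 10 Zscan genes they were -0.22, -0.34 and -0.57 and -0.36, -0.51 and -0.37, with 2 or 3 fallen and 0 risen. The difference between these families and the Zfp-named genes was not tested.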

How the data were processed

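Counts of 3′ mRNA reads (QuantSeq) per Ensembl gene were deposited by the authors for 21 libraries, with a second table of rlog (regularised log2) values that the authors made from them with DESeq2. Per the labels and the study's methods, reads were trimmed with BBDuk, aligned to GRCm38 with STAR 2.5.2a and counted with HTSeq. The annotation release and the strand setting are not given in the sources used here. A 3′ tag counts transcripts near their ends, so its number does not depend on gene length, but a level is not compared between genes.

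The deposited counts, 2352800 to 6244279 per library, were fitted in R 4.3.3 with DESeq2 1.42.0, the tool of the study's methods: genes with 10 or more reads, 1 coefficient per group over 21 libraries, a Wald test per contrast and shrinkage with a normal prior. A gene was called at an adjusted p (Benjamini-Hochberg over all genes tested) under 0.05 and an absolute log2 fold change over 1. The interaction of dose and time was a likelihood ratio test on 18 libraries, called at an adjusted p under 0.05. Fold values are ratios of mean normalised counts. The rlog values were used to choose the members and as an alternative scale. The steps were tested on simulated data. Alternatives were edgeR 4.0.16 (quasi-likelihood, TMM), TMM size factors in DESeq2, no filter, a mean of 20 counts, the adjusted p alone, no shrinkage, only the 6 libraries compared, a replicate block and each library left out.

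Fingers and KRAB-like stretches were found by pattern in coding sequences of GENCODE vM21 (GRCm38), and promoters were taken from RefSeq (GRCm38.p6). Named genes were the 10 most counted members, up to 6 falling and 5 rising members per comparison by log2 fold change with a mean of 20 or more counts and no overlap between groups, the 5 lowest adjusted p of the interaction test, and members with a described role. The members and lists were chosen with earlier results of these data known. Where replicates were mice, as the methods state, p-values rest on the spread between mice within groups. Each gene has a single estimate of that spread, shared by all groups of a fit, although the spread differed between groups. The number of 3 mice per group limits the precision.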

Additional observations from a re-analysis of the deposited data

Results flagged for a closer look

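A test of the difference between dose effects at 4 h, 12 h and 24 h singled out 6 of 209 tested members (2.87%, where 10.4% of all genes tested were called). Their adjusted p in the DESeq2 likelihood ratio test was 3.89e-17 for Zfp703, 0.00216 for Zfp281, 0.0105 for Zfp821, 0.0125 for Zfp101, 0.0184 for Zfp827 and 0.0244 for Zfp26. edgeR called 4 of the 6, with 0.0578 for Zfp827 and 0.057 for Zfp26. When the libraries with the same replicate number were left out of every group, Zfp703 was called in each of the 3 fits, and Zfp101, Zfp827 and Zfp26 in none. Zfp281 was lost without replicate 1 (0.0988), and Zfp821 was lost without replicate 2 (0.0902) and had no adjusted p without replicate 3.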

How the results depend on the processing

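The counts of called members stayed within 1.5 times in 136 of 154 recomputations, and the members' median log2 fold change moved by less than the spread between replicates in 128 of 154. With a mean of 20 counts required, 55, 62 and 27 of 166 members were called in the 0.8-µg 4 h, 80-µg 4 h and 80-µg 24 h against 12 h comparisons (33.1%, 37.3% and 16.3%, where 47.4%, 50.4% and 31% of all genes were called). With the adjusted p alone, 114 (0.8 µg, 12 h), 68 and 88 (24 h, low and high dose), 13 and 2 (between doses at 4 h and 24 h), and 80 and 83 (24 h against 12 h) were called. By the same rule 25.2% of all genes were higher and 27.9% lower at 12 h (0.8 µg), 20.8% and 15.2% at 24 h (0.8 µg), 22.1% and 16.9% at 24 h (80 µg), 5.81% and 6.19% between doses at 4 h, 3.73% and 2.2% between doses at 24 h, and 24.9% and 19.1% (low dose) and 24.9% and 19.8% (high dose) for 24 h against 12 h. With only the 6 libraries compared, 2 and 0 were called between doses at 4 h and 12 h. At 24 h between doses edgeR and the fit without a filter called 1 each, where edgeR called 0.634% of all genes higher and 0.49% lower. Leaving out 1 library gave 2 to 6, 1 to 5 and 0 to 1 calls between doses at the 3 times. Leaving the libraries of 1 replicate number out of all groups gave 2 to 3 calls for the interaction. For the fits with 6 libraries, without a filter or with libraries left out, no share over all genes is given here. Those counts therefore do not set the members against other genes.

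In the order 4 h, 12 h and 24 h, the median was -0.23, -0.61 and -0.39 at the low dose and -0.40, -0.57 and -0.46 at the high dose with a mean of 20 counts, and -0.29, -0.33, -0.20, -0.34, -0.33 and -0.30 in the deposited rlog values. Without shrinkage it was -0.58 (0.8 µg, 12 h), -0.55 and -0.51 (80 µg, 12 h and 24 h), with edgeR -0.57 (0.8 µg, 12 h) and -0.46 (80 µg, 24 h), and with 6 libraries -0.46, -0.37 and 0.02 (0.8 µg 12 h, 80 µg 24 h, and 80 µg 24 h against 12 h). Leaving out 1 library gave -0.53 to -0.41, -0.51 to -0.41 and -0.34 to -0.22 at the low dose, -0.48 to -0.39 at 24 h at the high dose, and 0.01 to 0.10 for 24 h against 12 h at the high dose. The cause of these shifts was not tested. Of 1390 values of named genes, 1346 kept their side of the threshold, 44 lost a call and 0 reversed.

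Replicate numbers did not pair the samples: the correlation of same-numbered libraries ran from -0.22 to 0.22, and 7 of 21 libraries correlated best with their own number. With the replicate block, 90, 69 and 24 members were called at the low dose, 97, 76 and 51 at the high dose, 5, 3 and 0 between doses, 39 and 44 for 24 h against 12 h, and 6 for the interaction. In the same order and fit, these were 30.8%, 23.8%, 8.7%, 33%, 26%, 18.1%, 1.87%, 1.31%, 0%, 13.4%, 15.2% and 2.61% of the members tested, and 40.3%, 37.9%, 17.4%, 41.9%, 38.1%, 20.2%, 5.2%, 2.73%, 1.52%, 25.5%, 26.9% and 8.56% of all genes tested were called. At 2352800 to 6244279 counts per library, members under 10 normalised counts rest on few reads.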
